A study of Mus musculus with 48 samples.

Results

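The extracellular matrix of the mouse cortex was followed through 10 genes, picked by symbol. They are the lecticans Acan, Bcan, Ncan and Vcan, the link proteins Hapln1, Hapln2 and Hapln4, the tenascins Tnr and Tnc, and the hyaluronan synthase Has3. They make up 10 of the 48526 genes in the count table, and all 10 were found there. The samples were cortices of 12 untreated wild-type C57BL/6JRj males, 4 at 3 weeks (3w), 4 at 5 months (5m) and 4 at 18 months (18m) of age. The middle group carries 6 months in 1 label field, but is called 5m here after the protocol. Each mouse gave 4 RNA-seq libraries. Total homogenate (TH) holds RNA of all cortical cells, and synaptosomes (SYN) are the gradient fraction enriched for nerve terminals, which also carries fragments of glia. From both, RNA was sequenced before (input) and after pelleting through a sucrose cushion (SC), which collects RNA bound to ribosomes. The ratio of SC to input is called translational efficiency (TE) below. The groups are named input_TH, SC_TH, input_SYN and SC_SYN, with 4 mice at each age.

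Perineuronal nets are lattices of extracellular matrix around the soma and proximal dendrites of certain neurons, in the cortex above all the parvalbumin interneurons. Hyaluronan synthases spin out a hyaluronan backbone, lecticans bind to it through their N-terminal domain, link proteins lock that bond, and tenascin-R crosslinks the lecticans at their other end. The nets mature after birth, as critical periods of plasticity close. Several members also belong to a looser matrix that fills the neuropil, and Hapln2 and one form of versican belong to the matrix of the node of Ranvier.

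Several of the genes lie side by side in the genome (GRCm38), with no coding gene between them. Bcan and Hapln2 are 21.519 kb apart on chromosome 3, Hapln1 and Vcan 43.659 kb apart on chromosome 13, and Ncan and Hapln4 2.222 kb apart on chromosome 8. The promoter table of RefSeq (GRCm38.p6), with 250 bases before and 50 after each gene start, held 8 of the 10 genes. The stretches printed here were chosen because they belong to neighbours that moved in opposite directions between 3w and 5m in both TH fractions (Bcan and Hapln2), to the lectican that rose in both ribosome pellets over that step (Acan), and to the pair of members with the most similar pattern over libraries (Ncan and Tnc). Each is written 5′ to 3′ on the strand of the gene, ends at the base before the annotated start or the first annotated exon, and carries in capitals, on either strand, matches to the TATA motif (TATAAA), to the CAAT box (CCAAT) and to the core of the GC box (GGGCGG). The Bcan stretch lies at chr3:88000357-88000606 on the minus strand, Hapln2 at chr3:88027584-88027761 on the minus strand, Acan at chr7:79052976-79053225 on the plus strand, Ncan at chr8:70120874-70121094 on the minus strand and Tnc at chr4:64047016-64047265 on the minus strand.
Bcan: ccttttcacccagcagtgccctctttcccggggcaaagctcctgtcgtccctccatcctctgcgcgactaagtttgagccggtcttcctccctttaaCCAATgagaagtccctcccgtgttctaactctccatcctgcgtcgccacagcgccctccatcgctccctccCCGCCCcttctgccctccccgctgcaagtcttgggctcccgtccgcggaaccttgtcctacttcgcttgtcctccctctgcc
Hapln2: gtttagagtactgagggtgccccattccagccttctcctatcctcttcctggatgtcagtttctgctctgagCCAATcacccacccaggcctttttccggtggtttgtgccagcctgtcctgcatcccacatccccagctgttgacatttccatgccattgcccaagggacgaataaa
Acan: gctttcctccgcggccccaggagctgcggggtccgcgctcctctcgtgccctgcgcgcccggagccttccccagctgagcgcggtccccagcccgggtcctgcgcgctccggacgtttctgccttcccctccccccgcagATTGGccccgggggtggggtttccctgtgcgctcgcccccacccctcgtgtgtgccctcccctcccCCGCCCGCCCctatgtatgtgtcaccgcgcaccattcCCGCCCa
Ncan: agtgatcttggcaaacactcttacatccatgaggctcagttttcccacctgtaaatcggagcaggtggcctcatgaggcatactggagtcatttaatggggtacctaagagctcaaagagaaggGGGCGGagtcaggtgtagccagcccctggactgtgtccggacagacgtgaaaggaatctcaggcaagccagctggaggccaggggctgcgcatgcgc
Tnc: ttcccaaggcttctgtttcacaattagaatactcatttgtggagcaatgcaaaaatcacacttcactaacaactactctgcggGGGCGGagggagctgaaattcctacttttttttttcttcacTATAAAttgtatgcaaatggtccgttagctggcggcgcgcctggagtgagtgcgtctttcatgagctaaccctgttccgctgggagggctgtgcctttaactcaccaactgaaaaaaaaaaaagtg

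Over the full 300 bases, the Bcan window had a GC content of 64.0% and 24 CpG, and that of its neighbour Hapln2 52.0% and 2 CpG, against medians of 52.7% and 7 over 32851 promoters. The Acan window had the highest GC content of the members found in the table, with 74.0% and 31 CpG. The GC box core occurred 3 times in Acan, once each in Bcan, Ncan and Tnc, 2 times in Vcan, and not in Hapln1, Hapln2 and Tnr. It is held by 35.7% of all promoters of this length. The CAAT box was found in Acan, Bcan, Vcan and Hapln2 (37.4% of all promoters), and the TATA motif in Ncan, outside the printed stretch, and in Tnc (13.6%). These matches are descriptions of letters in a window, and none was tested against the values that follow.

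Libraries held between 1780267 and 18590040 counts on genes, with medians of 10815833.5 in input_TH, 8643431 in SC_TH, 3756951 in input_SYN and 7298371 in SC_SYN. The members differed widely in depth. Ncan had 2466 to 18171 counts per library, Acan 26 to 541, Tnc 14 to 228, Hapln2 8 to 438 and Has3 only 2 to 46, so that a difference in Has3 was detectable only if large. Reads were counted without strand, and Tnr, Tnc and Has3 share 443, 176 and 352 exon bases with another gene, which makes their values less certain. Differences between replicates exceeded counting error, by 1.98 to 32.2 times over 72 pairs of libraries. Every marker of excitatory neurons, interneurons and astrocytes was present in every library, and those of oligodendrocytes too, except Aspa, which was at 0 in some. Cldn5 and Ly6c1 of endothelial cells and Lum of fibroblasts were also at 0 in some libraries. The summed astrocyte markers were higher in SYN (13320.0–13970.0 CPM in input_SYN at 5m) than in TH (3921–4682 CPM in input_TH), and the summed oligodendrocyte markers were 5791–7311 CPM at 3w and 2266–2663 CPM at 5m in input_TH. Levels are given as CPM (normalised counts) after TMM normalisation over the 48 libraries, as mean ± SD of 4 mice, or in order of mouse number. Where genes are compared with each other, CPM per kilobase of exon (RPKM) is used.

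Bcan and Ncan were the most abundant members in every fraction and at every age, and Has3 the least. In input_TH at 3w, the level of Bcan was 75.8 ± 3.66 RPKM and that of Ncan 73.2 ± 1.83 RPKM, with overlapping ranges. Tnr followed with 24.0 ± 1.39 RPKM and Hapln4 with 17.9 ± 1.60 RPKM, each apart from its neighbour in the order. The other members were far lower, from 5.11 ± 0.602 RPKM for Hapln2 through 2.44 ± 0.422 for Hapln1, 1.93 ± 0.189 for Vcan, 1.73 ± 0.192 for Tnc and 0.942 ± 0.0379 for Acan to 0.383 ± 0.0614 for Has3. Among these, the ranges of Hapln1, Vcan and Tnc overlapped with those of their neighbours. By 5m, Hapln4 stood above Tnr in input_TH, with 23.3 ± 1.08 against 18.9 ± 2.26 RPKM, and the ranges did not overlap. Acan, the lectican most tied to perineuronal nets, stayed among the lowest members in input_TH, with 1.00 ± 0.0217 RPKM at 18m, but reached 5.37 ± 0.325 RPKM in SC_SYN at 5m, above Hapln1, Vcan, Tnc and Has3 there.

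**Figure D1:**
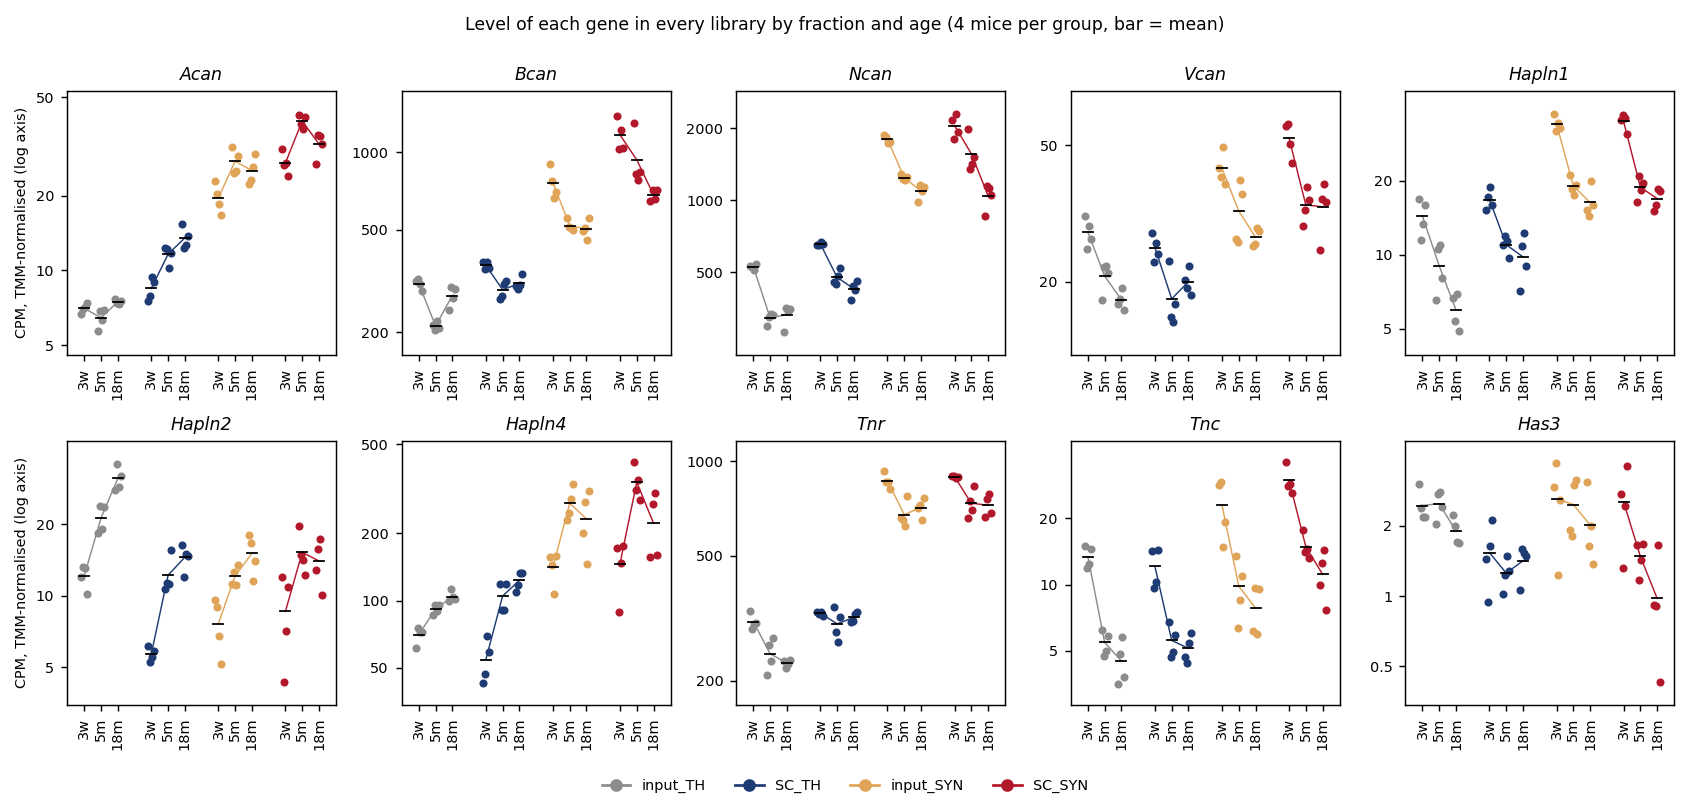
Level of the 10 genes in each of the 48 libraries, as TMM-normalised CPM on a log axis, by fraction (colour) and age, with 4 mice per group. Points are libraries, black bars are means and coloured lines join the means of a fraction. Tnc was lower at 5m and 18m than at 3w in all 4 fractions, while Hapln2 and Hapln4 had higher means at both later ages.

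Between 3w and 5m the lecticans split. Bcan and Ncan fell in input_TH, SC_TH and input_SYN, and Vcan in input_TH, SC_TH and SC_SYN. Acan rose in both ribosome pellets and did not pass in either input. Its log2 fold change was 0.46 in input_SYN and 0.53 in SC_SYN. In input_TH, 8 of the 10 members had an adjusted p under 0.05, which is meant below where a gene is said to pass or to be called, against 11.8% of all 18078 genes tested, and 6 of the 8 fell. In SC_TH, 8 of 10 were called against 17.9%, in input_SYN 6 of the 9 tested against 3.22%, and in SC_SYN 5 of 10 against 8.05%. The median log2 fold change of the members was -0.39 in input_TH, -0.32 in SC_TH, -0.42 in input_SYN and -0.39 in SC_SYN, with a median over all genes between -0.01 and 0.01. Of all genes called, 40.3% were higher at 5m in input_TH and 50.0% in SC_SYN, and with library size in place of TMM 59.2% and 39.2%. In bulk samples, fewer cells of a type and less RNA per cell cannot be told apart.

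Ncan (ENSMUSG00000002341, chr8:70093085-70120873, minus strand) encodes neurocan, the lectican of the young brain. In input_TH its level was 529, 524, 510.4 and 542 CPM at 3w and 297, 324, 335 and 332 CPM at 5m. The groups did not overlap (log2 fold change -0.72, SE 0.06, adjusted p = 1.33e-06 by edgeR). In SC_TH the values were 651, 648, 670.1 and 654 CPM and then 456, 444, 481 and 519 CPM, again apart (log2 fold change -0.49, adjusted p = 0.000243 by edgeR). In input_SYN it fell by a similar amount (log2 fold change -0.54, adjusted p = 0.000615 by edgeR). In SC_SYN the values were 2167, 1804, 2297 and 1932 CPM at 3w and 1979, 1353, 1411 and 1516 CPM at 5m. Here 1 library at 5m, of mouse 191, lay among the 3w values, and the difference did not pass (log2 fold change -0.42, SE 0.14, adjusted p = 0.073 by edgeR). It passed without mouse 191 (log2 fold change -0.55, adjusted p = 0.0253 by edgeR), and in DESeq2 (adjusted p = 0.0373).

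Bcan (ENSMUSG00000004892, chr3:87987531-88000230, minus strand) encodes brevican, a lectican of perineuronal nets and of the perisynaptic matrix. Its level in input_TH was 316, 322, 308 and 288 CPM at 3w and 214, 204, 221 and 207 CPM at 5m, without overlap (log2 fold change -0.55, SE 0.07, adjusted p = 3.41e-05 by edgeR). It also fell in SC_TH (log2 fold change -0.34, adjusted p = 0.00451 by edgeR) and in input_SYN (log2 fold change -0.56, adjusted p = 0.00299 by edgeR). In SC_SYN it was 1386, 1031, 1216 and 1035 CPM at 3w and 1298, 819, 777 and 839 CPM at 5m, and mouse 191 again stood above the other 3 (log2 fold change -0.35, SE 0.16, adjusted p = 0.17 by edgeR). The SC_SYN difference passed without mouse 191 (log2 fold change -0.55, adjusted p = 0.0214 by edgeR). Bcan has a GC content of 60.7% over its exons, and after correction for GC content and gene length its log2 fold change in SC_TH was -0.54 instead of -0.34.

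Vcan (ENSMUSG00000021614, chr13:89655312-89742509, minus strand) encodes versican, a large lectican with several splice forms that the gene counts do not separate. It fell in input_TH, from 27.9 ± 2.73 to 20.8 ± 2.13 CPM (log2 fold change -0.43, SE 0.08, adjusted p = 0.00213 by edgeR), in SC_TH (log2 fold change -0.51, adjusted p = 0.0105 by edgeR) and in SC_SYN. In SC_SYN the 3w libraries held 57.0, 57.8, 50.6 and 44.5 CPM and the 5m libraries 29.1, 32.4, 37.9 and 34.6 CPM, with no overlap (log2 fold change -0.68, SE 0.14, adjusted p = 0.0114 by edgeR). In input_SYN the difference of -0.42 did not pass (adjusted p = 0.159 by edgeR), and the groups overlapped.

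Acan (ENSMUSG00000030607, chr7:79053483-79115099, plus strand) encodes aggrecan, which parvalbumin interneurons make for their nets. In input_TH it was 6.68, 7.01, 7.09 and 7.36 CPM at 3w and 5.71, 6.88, 6.29 and 6.90 CPM at 5m, with overlapping groups (log2 fold change -0.13, SE 0.10, adjusted p = 0.495 by edgeR). In SC_TH it was 7.55, 7.92, 9.37 and 9.02 CPM and then 12.3, 12.2, 10.3 and 11.8 CPM, and every 5m library was above every 3w library (log2 fold change 0.43, SE 0.13, adjusted p = 0.0332 by edgeR). In SC_SYN the values were 30.8, 26.5, 27.2 and 24.0 CPM and 42.5, 39.0, 37.3 and 41.7 CPM, also without overlap (log2 fold change 0.53, SE 0.12, adjusted p = 0.0165 by edgeR). In input_SYN the groups were apart as well, with 22.9, 20.3, 18.5 and 16.7 CPM at 3w and 31.5, 24.8, 25.2 and 28.9 CPM at 5m, but the difference did not pass (log2 fold change 0.46, SE 0.16, adjusted p = 0.122 by edgeR). This input_SYN difference passed when all 48 libraries shared one fit, which had no term for the mouse (log2 fold change 0.49, adjusted p = 0.0156 by edgeR). The call in SC_TH was lost without mouse 187, 188, 190, 191, 192 or 194 (log2 fold changes 0.38 to 0.45, adjusted p from 0.0501 to 0.102 by edgeR). It was also lost with counts thinned to the smallest library (log2 fold change 0.40, adjusted p = 0.1735 by edgeR) and with only the groups compared (log2 fold change 0.43, adjusted p = 0.05915 by edgeR). The median depth of SC_TH was 4448523 counts at 3w and 8643431 at 5m. The Acan call in SC_SYN was lost without mouse 190 (log2 fold change 0.48, adjusted p = 0.0564 by edgeR), and after correction for GC content and gene length its value was 0.33. The summed interneuron markers, Pvalb among them, went over the same step from 560.0–641 to 663–888 CPM in SC_TH and from 712–1106 to 1122–1385 CPM in SC_SYN, where 4 and 1 of the 8 markers passed. In input_TH they went from 518–575 to 529–595 CPM. Their part in the Acan values was not tested.

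The link proteins also split. Hapln1 fell in all 4 fractions, Hapln4 rose in all 4, and Hapln2 rose in both TH fractions. Hapln1 (ENSMUSG00000021613, chr13:89539796-89611652, plus strand) encodes the link protein whose loss thins perineuronal nets. In SC_SYN it was 35.5, 37.1, 36.2 and 31.0 CPM at 3w and 16.5, 20.9, 18.4 and 19.7 CPM at 5m (log2 fold change -0.92, SE 0.13, adjusted p = 0.000661 by edgeR). In input_SYN it went from 37.3, 32.0, 34.5 and 32.8 to 21.2, 18.5, 17.5 and 19.2 CPM (log2 fold change -0.84, SE 0.15, adjusted p = 0.00318 by edgeR). The ages did not overlap in either, nor in TH, where the log2 fold change was -0.69 in input_TH (adjusted p = 0.00707 by edgeR) and -0.65 in SC_TH (adjusted p = 0.00781 by edgeR). Its neighbour Vcan fell in 3 of the 4 fractions as well.

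Hapln4 (ENSMUSG00000007594, chr8:70083457-70090862, plus strand) encodes Bral2, the link protein that partners with brevican. In SC_SYN it was 172, 88.8, 148 and 176 CPM at 3w and 416, 311, 348 and 281 CPM at 5m, with every 5m library above every 3w library (log2 fold change 1.18, SE 0.24, adjusted p = 0.00834 by edgeR). In SC_TH it was 42.6, 46.9, 69.3 and 58.6 CPM and then 118, 91.0, 90.8 and 119 CPM (log2 fold change 0.92, SE 0.13, adjusted p = 0.000281 by edgeR). The rise in input_SYN was 0.94 (adjusted p = 0.00993 by edgeR). That in input_TH was the smallest of the 4, from 61.3, 75.6, 72.2 and 72.2 to 86.5, 95.0, 89.5 and 95.1 CPM (log2 fold change 0.38, SE 0.06, adjusted p = 0.000953 by edgeR), and did not pass when all 48 libraries shared one fit (adjusted p = 0.35). Hapln4 and its neighbour Ncan, 2.222 kb apart and tail to tail, thus moved in opposite directions in both TH fractions and in input_SYN.

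Hapln2 (ENSMUSG00000004894, chr3:88021750-88027583, minus strand) encodes Bral1, the link protein of the node of Ranvier, which oligodendrocytes make. In input_TH it was 12.0, 13.2, 13.1 and 10.1 CPM at 3w and 18.3, 24.0, 19.1 and 23.6 CPM at 5m (log2 fold change 0.80, SE 0.11, adjusted p = 0.000188 by edgeR). In SC_TH it was 6.11, 5.28, 5.50 and 5.84 CPM and then 10.6, 11.3, 11.2 and 15.6 CPM (log2 fold change 1.08, SE 0.17, adjusted p = 0.000483 by edgeR). The highest library at 5m was that of mouse 194, and the groups did not overlap in either fraction. In SYN the groups were apart too, but neither input_SYN (log2 fold change 0.58, adjusted p = 0.178 by edgeR) nor SC_SYN (log2 fold change 0.79, adjusted p = 0.0775 by edgeR) passed. The SC_SYN difference passed without mouse 187 (log2 fold change 1.00, adjusted p = 0.0403 by edgeR), and in DESeq2 (adjusted p = 0.0364). Hapln2 moved against the oligodendrocyte markers as a group. Of these 10, which include Mbp, 9 fell in input_TH and 8 in SC_TH, with a median of -1.35 in input_TH, and none rose.

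Of the tenascins, Tnc had the largest fall of all members in each fraction, and Tnr a small one. Tnc (ENSMUSG00000028364, chr4:63959785-64047015, minus strand) encodes tenascin-C, an early matrix glycoprotein of immature glia. In input_TH it was 14.9, 11.9, 12.4 and 14.5 CPM at 3w and 6.25, 4.76, 5.00 and 5.85 CPM at 5m (log2 fold change -1.30, SE 0.14, adjusted p = 1.38e-05 by edgeR). In SC_SYN it was 36.1, 28.2, 28.9 and 26.1 CPM and 17.7, 14.0, 14.5 and 13.3 CPM (log2 fold change -1.04, SE 0.17, adjusted p = 0.00289 by edgeR). The fall was -1.10 in SC_TH (adjusted p = 0.000526 by edgeR) and -1.25 in input_SYN (adjusted p = 0.0106 by edgeR), and the ages did not overlap in any fraction. The call in input_SYN was lost without mouse 188 (log2 fold change -1.12, adjusted p = 0.0583 by edgeR). Tnr (ENSMUSG00000015829, chr1:159523769-159931729, plus strand) encodes tenascin-R, which crosslinks the nets. In input_TH it was 334, 292, 302 and 306 CPM at 3w and 209, 259.9, 231 and 274 CPM at 5m (log2 fold change -0.35, SE 0.06, adjusted p = 0.00193 by edgeR). In SC_TH the values were 332, 326, 332 and 322 CPM and 344, 286, 265 and 319 CPM, which overlapped, and the difference did not pass (log2 fold change -0.14, SE 0.07, adjusted p = 0.196 by edgeR). In input_SYN it fell by 0.37 on the log2 scale (adjusted p = 0.0283 by edgeR), a call lost without mouse 187, 188, 189, 191, 192 or 193 (log2 fold changes -0.33 to -0.38, adjusted p from 0.0632 to 0.0897 by edgeR). The difference in SC_SYN was -0.31 (adjusted p = 0.0752 by edgeR), without overlap between the ages, and passed in DESeq2 (adjusted p = 0.0103).

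Has3 (ENSMUSG00000031910, chr8:106870242-106884566, plus strand) encodes a hyaluronan synthase. It had 2.44 ± 0.392 CPM at 3w and 2.49 ± 0.349 CPM at 5m in input_TH (log2 fold change 0.01, SE 0.18, adjusted p = 0.997 by edgeR) and was too low to be tested in input_SYN. In SC_SYN the values were 2.75, 1.32, 2.44 and 3.62 CPM and 1.65, 1.17, 1.43 and 1.67 CPM, which overlapped (log2 fold change -0.79, adjusted p = 0.166 by edgeR).

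Glial markers moved with this step. The summed markers of oligodendrocyte precursors went from 203–238 to 111–135 CPM in input_TH and from 486–649 to 323–389 CPM in SC_SYN, with 3 and 2 of the 5 markers lower and none higher. Those of oligodendrocytes went from 9241–11320.0 to 3518–3954 CPM in SC_SYN. The astrocyte sum was 5045–5587 and then 3921–4682 CPM in input_TH, and 16340.0–18280.0 and then 16930.0–18660.0 CPM in SC_SYN. Microglia went the other way in SC_SYN, with a sum of 564–639 and then 950.0–1185 CPM, and stood at 196–222 and then 192.5–214 CPM in input_TH. The fibroblast sum was 208–278 and then 103–244 CPM in SC_SYN, and in input_TH at 5m it spread from 40.5 to 257 CPM. The part of these cells in the fall of Bcan, Ncan, Vcan, Hapln1, Tnr and Tnc was not tested.

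**Figure D2:**
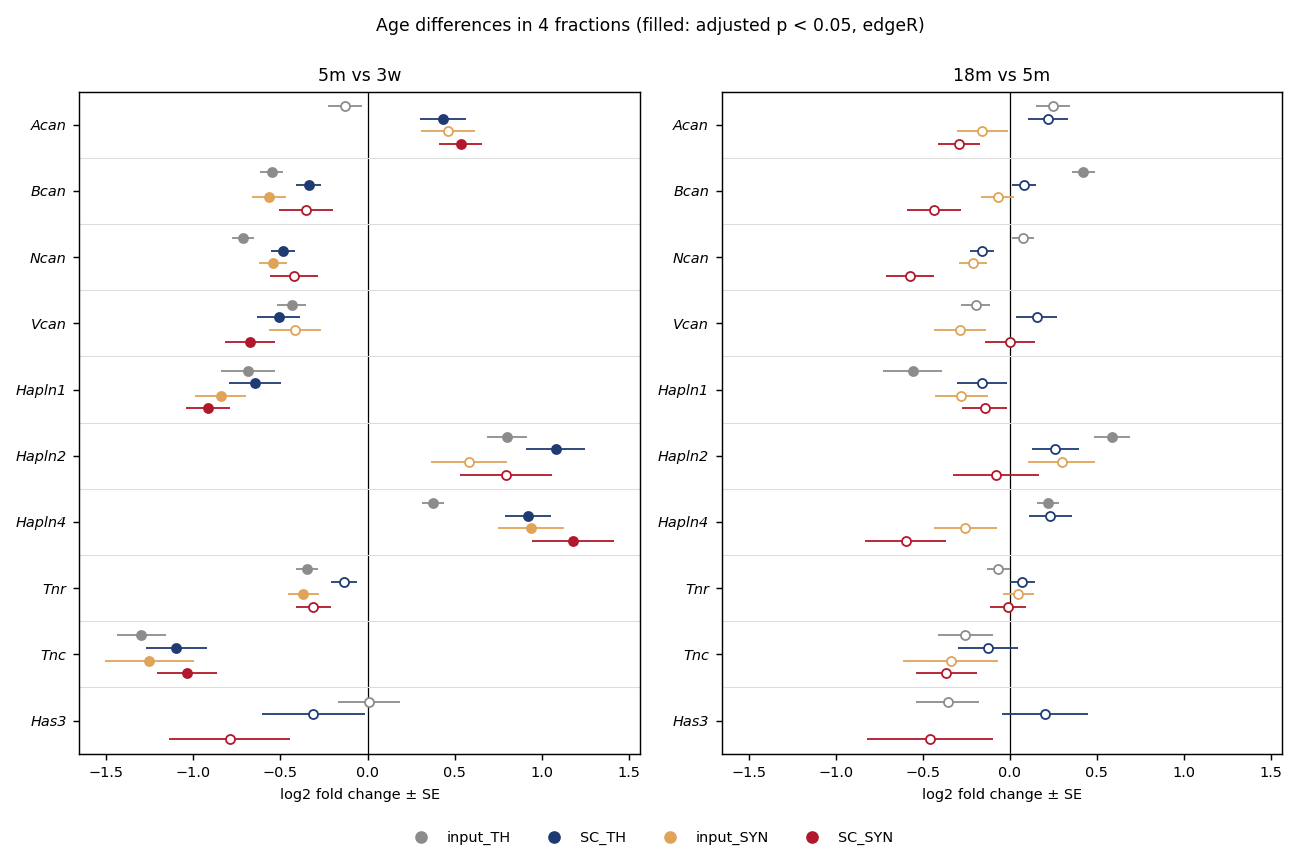
Log2 fold changes between ages for the 10 genes in 4 fractions, with bars for the SE and filled points for an adjusted p under 0.05 in edgeR. The left panel shows 5m vs 3w, where Tnc lies between -1.30 and -1.04 in the 4 fractions, and the right panel 18m vs 5m, where filled points are found only for input_TH.

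Between 5m and 18m, 4 members passed in input_TH, where 15.5% of all genes did, and none in the other fractions. Of the genes called there, 52.7% were higher at 18m, and 32.6% with library size in place of TMM. Bcan, Hapln2 and Hapln4 rose and Hapln1 fell. Bcan went back up, from 214, 204, 221 and 207 CPM at 5m to 243, 299.5, 272 and 294 CPM at 18m, every value above those at 5m and 2 of the 4 below all values at 3w (log2 fold change 0.42, SE 0.07, adjusted p = 0.00188 by edgeR). Hapln2 went on rising, to 28.0, 36.0, 28.7 and 32.0 CPM at 18m, clear of the 5m values (log2 fold change 0.59, SE 0.10, adjusted p = 0.00341 by edgeR). Hapln1 went on falling, to 6.65, 5.37, 6.96 and 4.89 CPM, a range that overlapped with that at 5m (log2 fold change -0.56, SE 0.17, adjusted p = 0.0342 by edgeR). Hapln4 reached 99.0, 112, 104 and 101 CPM, above all 5m values (log2 fold change 0.22, SE 0.06, adjusted p = 0.0298 by edgeR). After correction for GC content and gene length, the changes of Bcan, Hapln1 and Hapln4 were 0.23, -0.36 and 0.08. That of Hapln2 also moved by more than its SE there, without turning its direction. The call of Hapln1 was lost without mouse 192, 193, 196 or 198 (log2 fold changes -0.45 to -0.52, adjusted p from 0.0943 to 0.111 by edgeR), and that of Hapln4 without mouse 191, 192, 193, 196 or 198 (log2 fold changes 0.18 to 0.24, adjusted p from 0.05 to 0.101 by edgeR) and with library size in place of TMM (log2 fold change 0.17).

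Ncan did not pass in this step. In input_TH it was 282, 353, 343 and 350.4 CPM at 18m, with mouse 195 below the other 3 (log2 fold change 0.08, SE 0.06, adjusted p = 0.424 by edgeR), and the difference passed without mouse 195 (log2 fold change 0.16, adjusted p = 0.0299 by edgeR). The Vcan difference of -0.20 (adjusted p = 0.125 by edgeR) passed without mouse 191 (log2 fold change -0.26, adjusted p = 0.0393 by edgeR). The log2 fold change of Acan was 0.25 in input_TH (adjusted p = 0.0898 by edgeR), although its 18m values, 7.68, 7.37, 7.33 and 7.52 CPM, were all above those at 5m. The differences of Tnr, Tnc and Has3 were -0.06, -0.26 and -0.36, none with an adjusted p under 0.05.

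In SC_TH 0 of 10 members passed at 18m against 5m (1 at an unadjusted p under 0.05, 0 in DESeq2), where 2.17% of all genes did. In input_SYN it was 0 of 9 (1 unadjusted, 0 in DESeq2) against 0.139%, and in SC_SYN 0 of 10 (4 unadjusted, 1 in DESeq2) against 0.014%. Of all genes, 2878 of 16427 in SC_TH, 1214 of 12975 in input_SYN and 2474 of 14240 in SC_SYN had an unadjusted p under 0.05. The SC_SYN values of the 4 members with an unadjusted p under 0.05 are given as a description. How many of all genes had no overlap between 5m and 18m was not counted. Ncan held 859, 1142, 1120.0 and 1054 CPM at 18m, all below the 5m values (log2 fold change -0.57, SE 0.14, adjusted p = 0.16 by edgeR), and passed in DESeq2 (adjusted p = 0.0123). Bcan held 647, 714, 660.0 and 709.5 CPM, also below all 5m values (log2 fold change -0.44, SE 0.16, adjusted p = 0.218 by edgeR). Acan held 27.0, 35.2, 35.0 and 32.3 CPM, again without overlap (log2 fold change -0.29, SE 0.12, adjusted p = 0.239 by edgeR). Hapln4 was 156, 270.4, 302 and 159.5 CPM, spread over a wider range than at 5m (log2 fold change -0.60, SE 0.23, adjusted p = 0.23 by edgeR). The lower values were those of mice 195 and 198, whose libraries held 6268207 and 5341263 counts. Those of mice 196 and 197 held 18590040 and 15306804 counts. What set these libraries apart was not tested. When all 48 libraries shared one fit, these 4 genes passed, with adjusted p between 0.000125 for Ncan and 0.042 for Acan by edgeR. That fit had no term for the mouse. It took libraries of the same mouse as independent and used one spread for all fractions, so its p-values may be too small.

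The make-up of the lectican and link-protein transcripts shifted over the ages. Shares are the RPKM of a gene over the summed RPKM of the members of its family in the same library, and they are descriptions without a test. The link protein gene Hapln3 is not a member and is not in the sum. Bcan and Ncan together made up nearly all lectican transcripts. In input_TH the share of Bcan was 49.9% ± 1.64 at 3w, 52.5% ± 1.69 at 5m and 58.5% ± 0.873 at 18m, and that of Ncan 48.2% ± 1.61, 45.2% ± 1.52 and 39.6% ± 0.896. In input_SYN Ncan was the larger one at every age, with 56.6% ± 2.43, 56.4% ± 0.714 and 54.0% ± 2.27. Acan was a minor part, with a larger share at 5m than at 3w in every fraction and no overlap between these ages. In input_TH it was 0.621% ± 0.0355, 0.871% ± 0.0757 and 0.866% ± 0.103 at 3w, 5m and 18m, and in input_SYN 0.592% ± 0.042, 1.21% ± 0.108 and 1.21% ± 0.125, with overlap between 5m and 18m in both. In SC_SYN it was 0.629% ± 0.0479 at 3w, 1.21% ± 0.177 at 5m and 1.35% ± 0.0721 at 18m, and in SC_TH it went from 0.618% ± 0.06 over 1.11% ± 0.147 to 1.31% ± 0.173, and there too the libraries at 5m and 18m overlapped. The share of Vcan in input_TH was 1.27% ± 0.125, 1.45% ± 0.123 and 1.06% ± 0.117.

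Of the link proteins followed here, Hapln4 had the largest share in every group. The share of Hapln1 in input_TH was 9.67% ± 2.18 at 3w, 4.51% ± 0.968 at 5m and 2.51% ± 0.524 at 18m, with no overlap between ages, and that of Hapln2 was 20.1% ± 2.18, 26.4% ± 1.83 and 32.2% ± 1.79. Hapln2 had a smaller share in SYN, with 6.67% ± 0.463 in SC_SYN at 5m. There Hapln1 went from 13.5% ± 4.83 at 3w to 3.43% ± 0.815 at 5m and Hapln4 from 79.0% ± 3.70 to 89.9% ± 0.846.

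**Figure D3:**
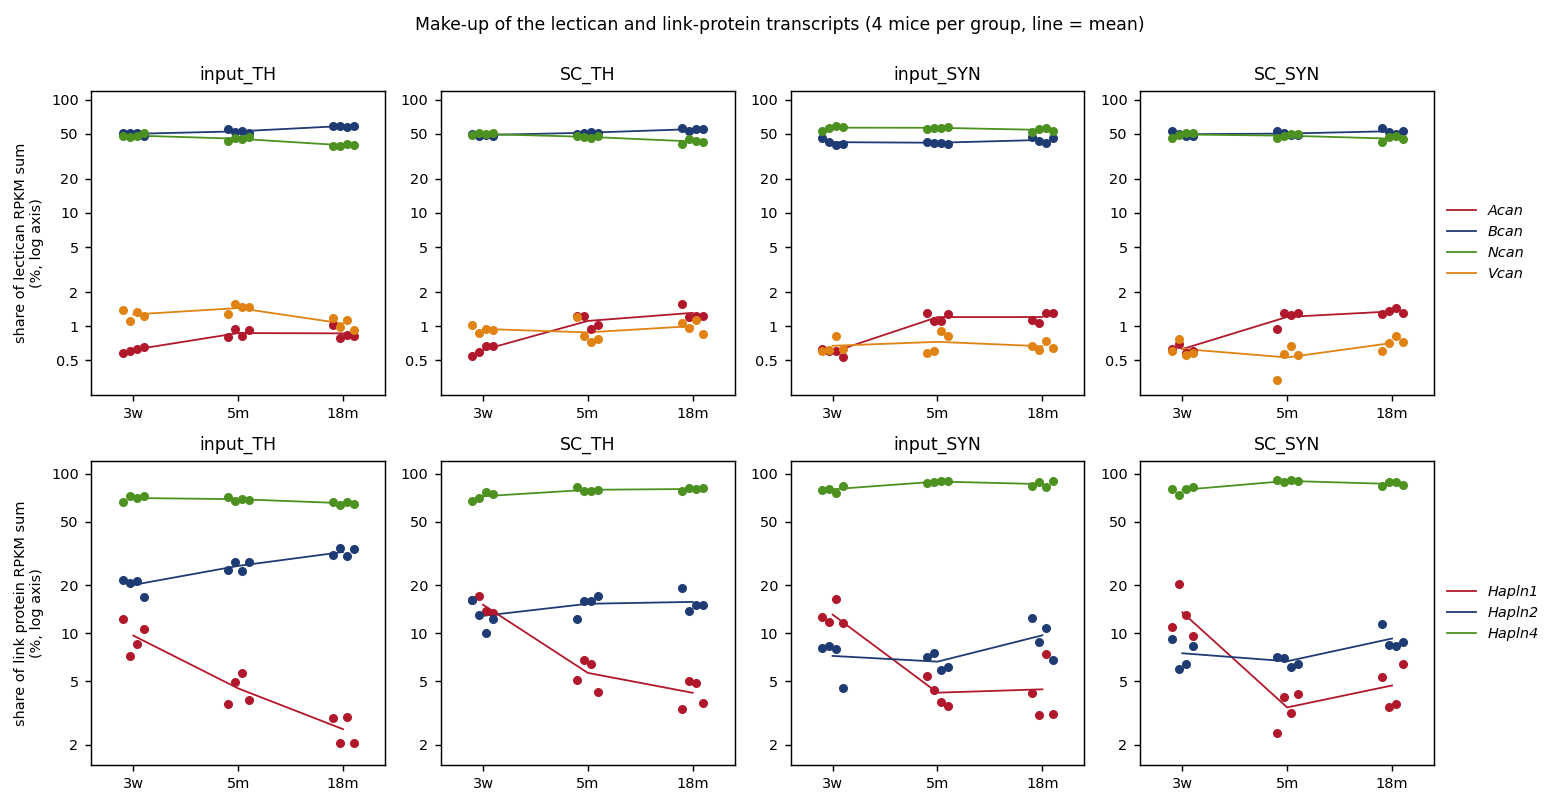
Share of each lectican (upper row) and link protein (lower row) in the RPKM sum of the members of its family, in percent on a log axis, by fraction and age. Points are libraries of 4 mice per group and lines join the means; the share of Hapln1 in input_TH is 9.67% at 3w, 4.51% at 5m and 2.51% at 18m.

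Most of the members were higher in SYN than in TH. Against TH, 8 of the 10 were higher in input_SYN at each age, and in SC_SYN 10 were higher at 3w and 8 at 5m and 18m. Hapln2 was lower in input_SYN than in input_TH at all 3 ages, and Has3 did not pass in input at any age. In SC, Hapln2 and Has3 passed only at 3w. These comparisons involve most genes. Between SC_SYN and SC_TH 63.5% of all genes were called at 3w, 67.8% at 5m and 62.1% at 18m, and between input_SYN and input_TH 71.0%, 72.7% and 72.3%. What set the members apart was the direction and the size. All members called were higher in SYN, except Hapln2 in input, while the called genes as a whole went both ways, with shares given below. The median log2 fold change of the members was 1.42, 1.39 and 1.06 in SC and 1.26, 1.35 and 1.12 in input. The median over all genes lay between -0.18 and -0.04. When scaled by library size instead of TMM, the median over all genes moved to between -0.83 and -0.59, so the values here are relative to the scaling. The share of called genes that were higher in SYN went from 49.0%, 47.3% and 48.2% to 25.4%, 23.4% and 20.5% in SC, and from 44.6%, 44.8% and 45.5% to 24.6%, 23.8% and 23.8% in input.

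Ncan and Acan had the largest differences of the members in input at each age, but Acan was close to Tnr at 3w and 18m. There Acan stood at 1.65 ± 0.13 (SE) and 1.86 ± 0.12, and Tnr at 1.62 ± 0.09 and 1.75 ± 0.09. After correction for GC content and gene length, the input values of Acan, Ncan and Tnr moved by more than their SE. The order given is that of the uncorrected values. Ncan at 5m was 1281, 1228, 1212 and 1248 CPM in input_SYN, against 297, 324, 335 and 332 CPM in input_TH of the same mice (log2 fold change 2.10, SE 0.08, adjusted p = 6.57e-19 by edgeR). Acan at 5m was 31.5, 24.8, 25.2 and 28.9 CPM in input_SYN, against 5.71, 6.88, 6.29 and 6.90 CPM in input_TH (log2 fold change 2.27, SE 0.13, adjusted p = 2.82e-15 by edgeR). Between the pellets, the log2 fold change of Acan was 1.72 ± 0.12 (SE) at 3w, 1.84 ± 0.11 at 5m and 1.32 ± 0.11 at 18m, and that of Ncan 1.69 ± 0.11, 1.78 ± 0.11 and 1.35 ± 0.11. For Bcan it was 1.73 ± 0.13, 1.73 ± 0.13 and 1.21 ± 0.13, which became 1.14, 1.05 and 0.83 after correction for GC content and gene length. For Tnr it was 1.49 ± 0.09, 1.34 ± 0.09 and 1.25 ± 0.09. All of these passed, and in each case the SYN value was the higher one in 4 of 4 mice.

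Vcan differed less, by 0.74 ± 0.12, 0.79 ± 0.12 and 0.71 ± 0.12 in input, and these calls were lost with library size in place of TMM (0.17, 0.13 and 0.13). The differences of Tnc in input were 0.99 ± 0.19, 1.04 ± 0.24 and 0.97 ± 0.23, and with library size the calls at 5m and 18m were lost as well (0.38 and 0.39). With the GC and length trend removed, Tnc stood at 0.62, 0.66 and 0.63, and Bcan at 0.89, 0.74 and 0.58 in place of 1.44 ± 0.09, 1.45 ± 0.09 and 0.96 ± 0.09. Between the pellets Vcan was higher in SC_SYN by 1.10 ± 0.14, 0.96 ± 0.13 and 0.79 ± 0.13 and Tnc by 1.36 ± 0.17, 1.45 ± 0.18 and 1.21 ± 0.18. With library size Vcan at 18m was 0.26 and did not pass.

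The link proteins parted here too. Hapln1 was higher in input_SYN by 1.38 ± 0.15, 1.25 ± 0.17 and 1.52 ± 0.16 at 3w, 5m and 18m, and in SC_SYN by 1.09 ± 0.13, 0.84 ± 0.13 and 0.85 ± 0.13. After correction for GC content and gene length the SC differences of Hapln1 at 3w and 5m were 1.69 and 1.41, and with library size it was 0.26 at 5m and did not pass. Hapln4 was higher in input_SYN by 1.14 ± 0.16, 1.73 ± 0.16 and 1.27 ± 0.15, and in SC_SYN by 1.47 ± 0.21, 1.75 ± 0.20 and 0.91 ± 0.20. With the trend removed, the values of Hapln4 at 3w were 0.70 in input and 0.97 in SC, and with library size the SC difference at 18m was 0.38 and did not pass.

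Hapln2 at 18m was 18.0, 16.7, 11.5 and 14.0 CPM in input_SYN, against 28.0, 36.0, 28.7 and 32.0 CPM in input_TH, lower in SYN in 4 of 4 mice (log2 fold change -0.92, SE 0.13, adjusted p = 7.37e-07 by edgeR). At 3w and 5m the differences were -0.43 ± 0.18 and -0.65 ± 0.16, and after correction for GC content and gene length -0.94 and -1.24. The call at 3w was lost without mouse 188, 189 or 190 (log2 fold changes -0.34 to -0.46, adjusted p from 0.0626 to 0.152 by edgeR). With counts thinned to the smallest library, the difference at 3w was -0.65. In the pellets the difference of Hapln2 was 0.64 ± 0.25 at 3w, 0.37 ± 0.20 at 5m and 0.04 ± 0.20 at 18m, of which only that at 3w passed (adjusted p = 0.0313 by edgeR). That call was lost without mouse 187, 189 or 190 (log2 fold changes 0.47 to 0.69, adjusted p from 0.0554 to 0.179 by edgeR), and with the mouse as a replicate block (log2 fold change 0.58, adjusted p = 0.0622), while the 5m difference passed without mouse 194 (log2 fold change 0.61, adjusted p = 0.0216 by edgeR). With the trend removed the 3w value was 0.07, and with library size the 18m difference turned to -0.50 (adjusted p = 0.0263).

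Has3 was higher in SC_SYN than in SC_TH at 3w only, with 2.75, 1.32, 2.44 and 3.62 against 1.44, 0.942, 1.64 and 2.12 CPM (log2 fold change 0.78, SE 0.32, adjusted p = 0.0376 by edgeR). The call was lost in DESeq2 (adjusted p = 0.0757) and without mouse 187, 189 or 190 (log2 fold changes 0.64 to 0.86, adjusted p from 0.0737 to 0.137 by edgeR), and with library size the value was 0.24. At 18m the Has3 difference was -0.34 ± 0.30, and with library size -0.87 (adjusted p = 0.0103). In input its differences were 0.34 ± 0.28, 0.16 ± 0.29 and 0.13 ± 0.27, none with an adjusted p under 0.05.

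Markers of several cell types moved with the compartment. All 9 astrocyte markers were higher in SYN at each age, with medians between 1.43 and 1.54 in SC and between 1.60 and 1.76 in input, and so were all 5 markers of oligodendrocyte precursors. The summed precursor markers at 5m were 323–389 CPM in SC_SYN and 135–156 CPM in SC_TH. Of 8 microglia markers, 7 were higher in SC_SYN at 3w and 8 at 5m and 18m. Of 7 endothelial and pericyte markers, 6 were lower in SC_SYN at each age. The summed nuclear RNA was 1063–2153 CPM in SC_SYN and 7445–10600.0 CPM in SC_TH at 5m. Their part in the SYN values of the members was not tested.

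Whether the difference between SYN and TH changed with age was tested as an interaction. Bcan was the only member to pass, and only in input at 18m against 5m. In input_TH it rose between these ages, while in input_SYN it was 553, 511, 509 and 499.7 CPM at 5m and 496, 505, 454 and 555 CPM at 18m, with overlapping groups. The interaction was -0.49 (SE 0.13, adjusted p = 0.0395 by edgeR), and 2.42% of all genes passed. The call was lost without mouse 191, 192, 193, 194, 196 or 197 (log2 fold changes -0.44 to -0.51, adjusted p from 0.0819 to 0.111 by edgeR), and after correction for GC content and gene length the value was -0.16. In DESeq2, Ncan passed as well (interaction -0.28, adjusted p = 0.033). For input at 5m against 3w, 0 of 10 members passed (2 at an unadjusted p under 0.05, 0 in DESeq2) and 0.0224% of all genes. There, 1437 of all 17860 genes had an unadjusted p under 0.05. For the pellets, 0 of 10 passed at 5m against 3w (0 unadjusted, 0 in DESeq2) and 0 at 18m against 5m (4 unadjusted, 0 in DESeq2), where 0.0301% and 0.0% of all genes did. Of all 16630 genes tested in the pellets, 1324 and 2855 had an unadjusted p under 0.05. The interactions of the 4 genes at 18m against 5m were -0.52 ± 0.15 for Acan, -0.53 ± 0.18 for Bcan, -0.42 ± 0.15 for Ncan and -0.84 ± 0.28 for Hapln4, with adjusted p from 0.134 to 0.186 by edgeR.

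**Figure D4:**
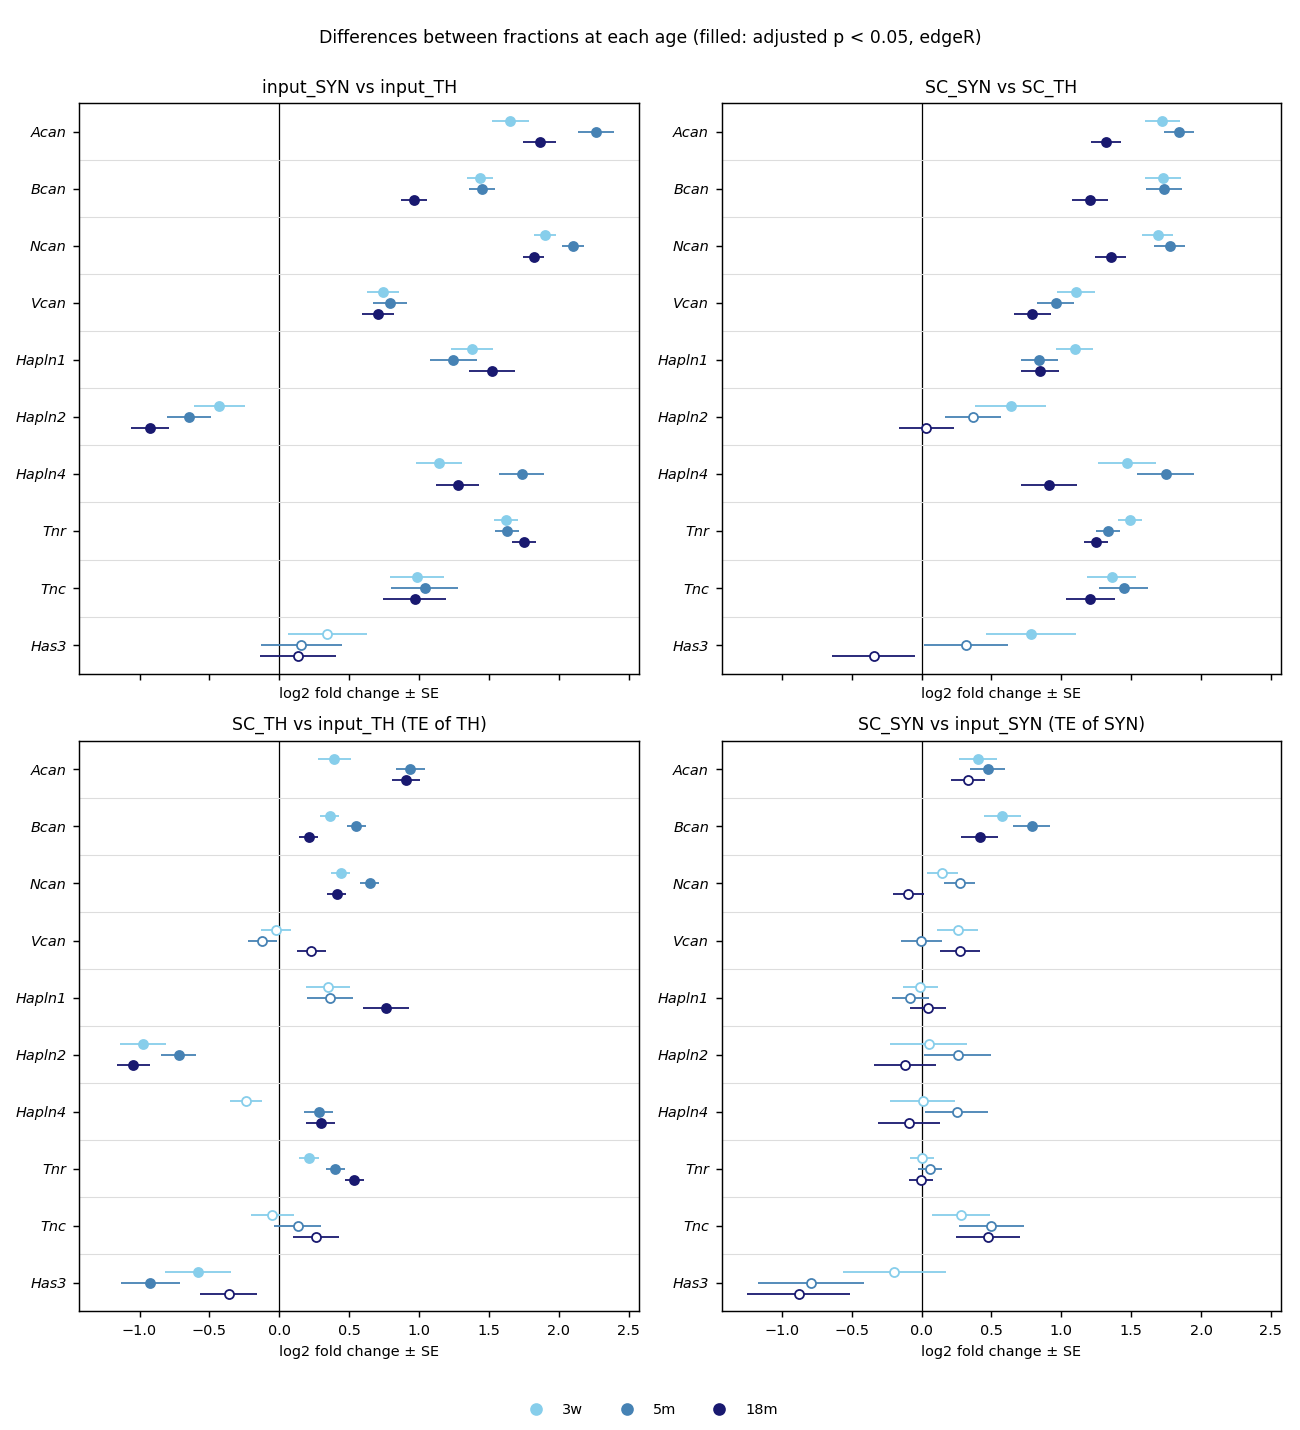
Log2 fold changes between fractions at each age for the 10 genes, with bars for the SE and filled points for an adjusted p under 0.05 in edgeR. The upper panels compare SYN with TH in input and in SC, where Hapln2 in input runs from -0.43 at 3w to -0.92 at 18m, and the lower panels show TE in TH and in SYN.

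TE in TH, the ratio of SC_TH to input_TH, was above that of the median gene for the 3 lecticans Acan, Bcan and Ncan and for Tnr at every age, and below it for Hapln2. Of the 10 members, 6 were called at 3w, 7 at 5m and 7 at 18m, where 52.8%, 62.1% and 64.0% of all genes were, so the share of members called was near that of all genes. Acan had the highest TE of the members at 5m and 18m, and Ncan at 3w. At 5m Acan was 12.3, 12.2, 10.3 and 11.8 CPM in SC_TH, against 5.71, 6.88, 6.29 and 6.90 CPM in input_TH, higher in 4 of 4 mice (log2 fold change 0.94, SE 0.10, adjusted p = 1.75e-08 by edgeR). At 3w the difference was 0.39 ± 0.12, a call lost without mouse 189 (log2 fold change 0.34, adjusted p = 0.0777 by edgeR), and at 18m 0.91 ± 0.10. Ncan had 0.44 ± 0.07, 0.65 ± 0.07 and 0.41 ± 0.07, and Bcan 0.36 ± 0.07, 0.55 ± 0.07 and 0.21 ± 0.07, the last of which did not pass without mouse 195 (log2 fold change 0.16, adjusted p = 0.0671 by edgeR). Tnr had 0.21 ± 0.07, 0.40 ± 0.07 and 0.54 ± 0.07, and its call at 3w was lost without mouse 188 or 189 (log2 fold changes 0.19 to 0.20, adjusted p from 0.0513 to 0.0516 by edgeR).

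Hapln2 had the lowest TE of the members at 3w and 18m. At 18m it was 16.4, 11.9, 15.0 and 14.7 CPM in SC_TH and 28.0, 36.0, 28.7 and 32.0 CPM in input_TH, lower in the pellet in 4 of 4 mice (log2 fold change -1.04, SE 0.12, adjusted p = 1.95e-08 by edgeR), and at 3w and 5m the difference was -0.98 ± 0.17 and -0.72 ± 0.13. Has3 was lower in the pellet with log2 fold changes of -0.58 ± 0.23 at 3w and -0.92 ± 0.21 at 5m, and its call at 3w was lost without mouse 187, 188 or 189 (log2 fold changes -0.43 to -0.69, adjusted p from 0.0629 to 0.24 by edgeR) and with the replicate block (adjusted p = 0.0764). Hapln1 stood at 0.35 ± 0.16, 0.36 ± 0.16 and 0.76 ± 0.17 and passed at 18m. With the mouse as a replicate block it also passed at 3w (0.36, adjusted p = 0.0381) and at 5m (0.39, adjusted p = 0.0227), as it did without mouse 187 (log2 fold change 0.48, adjusted p = 0.035 by edgeR) and without mouse 193 (log2 fold change 0.46, adjusted p = 0.0414 by edgeR). Hapln4 stood at -0.24 ± 0.11 at 3w, 0.28 ± 0.10 at 5m and 0.29 ± 0.10 at 18m. The 5m call was lost without mouse 191 or 194 (log2 fold changes 0.23 to 0.23, adjusted p from 0.0861 to 0.104 by edgeR) and with library size (0.18), and after correction for GC content and gene length the value was 0.15. The 18m call was lost without mouse 197 or 198 (log2 fold changes 0.25 to 0.26, adjusted p from 0.0746 to 0.081 by edgeR), while the 3w difference passed without mouse 189 (log2 fold change -0.38, adjusted p = 0.0116 by edgeR) and with the replicate block (-0.26, adjusted p = 0.0277).

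Vcan and Tnc did not pass at any age in TH, with differences of -0.03 ± 0.11, -0.12 ± 0.11 and 0.23 ± 0.10 for Vcan and -0.05 ± 0.15, 0.13 ± 0.17 and 0.26 ± 0.17 for Tnc. The Vcan difference at 5m passed without mouse 191 (log2 fold change -0.31, adjusted p = 0.0113 by edgeR). The pellets of TH also held nuclear RNA, with summed nuclear markers of 10270.0–13440.0 CPM at 3w, 7445–10600.0 at 5m and 5340.0–6288 at 18m, against 16890.0–18440.0 CPM in input_TH at 18m. Its part in the TE values was not tested.

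In SYN, few members passed. TE was above that of the median gene for Bcan at every age and for Acan at 3w and 5m. Here 2 of 10 were called at 3w, 2 at 5m and 1 at 18m, against 18.5%, 20.0% and 12.6% of all genes, so the count of members was near what the share over all genes gives. Bcan at 5m was 1298, 819, 777 and 839 CPM in SC_SYN and 553, 511, 509 and 499.7 CPM in input_SYN, higher in 4 of 4 mice (log2 fold change 0.79, SE 0.13, adjusted p = 0.000152 by edgeR). At 3w its difference was 0.58 ± 0.13 and at 18m 0.42 ± 0.13, the latter lost without mouse 195, 196, 197 or 198 (log2 fold changes 0.40 to 0.42, adjusted p from 0.0823 to 0.15 by edgeR). Acan stood at 0.40 ± 0.13 at 3w, 0.47 ± 0.12 at 5m and 0.33 ± 0.12 at 18m, where it did not pass (adjusted p = 0.0764 by edgeR). Its call at 3w was lost without mouse 187, 188, 189 or 190 (log2 fold changes 0.36 to 0.42, adjusted p from 0.0775 to 0.136 by edgeR) and that at 5m without mouse 192 (log2 fold change 0.43, adjusted p = 0.0546 by edgeR). That of Tnr at 5m was 0.06 ± 0.09.

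A change of TE with age was tested as an interaction between SC and input, and 0 of 10 members passed in either compartment. In TH at 5m against 3w (3 at an unadjusted p under 0.05, 1 in DESeq2), where 2.33% of all genes passed, Acan had 0.54 ± 0.16 (adjusted p = 0.0561 by edgeR) and Hapln4 0.52 ± 0.15 (adjusted p = 0.0591 by edgeR). Acan passed without mouse 189 (log2 fold change 0.60, adjusted p = 0.0433 by edgeR). Hapln4 passed without mouse 189 or 192 (log2 fold changes 0.58 to 0.66, adjusted p from 0.0137 to 0.0342 by edgeR), in DESeq2 (adjusted p = 0.0204) and with the replicate block (0.53, adjusted p = 0.0317). So although Acan was called in SC_TH and not in input_TH between 3w and 5m, the difference between these changes did not itself pass. In TH at 18m against 5m (3 unadjusted, 1 in DESeq2), where 1.78% passed, Bcan had -0.34 ± 0.10 (adjusted p = 0.0625 by edgeR). It passed without mouse 191 or 195 (log2 fold changes -0.40 to -0.43, adjusted p from 0.00705 to 0.0245 by edgeR) and in DESeq2 (adjusted p = 0.0113), and Vcan, at 0.35 ± 0.15, passed without mouse 191 (log2 fold change 0.53, adjusted p = 0.0128 by edgeR). In SYN 0.0% of all genes passed at 5m against 3w (0 members unadjusted, 0 in DESeq2) and 0.0% at 18m against 5m (1 unadjusted, Ncan, and 0 in DESeq2). Over these steps, 4027 and 3137 of all 18416 genes in TH had an unadjusted p under 0.05, and 473 and 393 of 14301 in SYN.

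The genes whose levels followed a member most closely were sought among 10796 genes with a mean of at least 5 CPM, by Pearson's r over the 48 libraries after the mean of each fraction was removed. These libraries share mice, depth and age groups, and r is given as a description. For Ncan they were Cldn11 (r = 0.939), a claudin of myelin, Marcksl1 (0.937) and Trp53inp2 (0.935). For Tnc they were Marcksl1 (0.942), Cldn11 (0.939) and Parvb (0.934). For Bcan they were Ddr1 (0.937), a collagen receptor, and Chst2 (0.904), and for Hapln1 Tspan2 (0.926) and Golga7 (0.917). Hapln4 was followed by Slit1 (0.972), Sez6l2 (0.957) and Faim2 (0.956), Hapln2 by Plekhb1 (0.893), Flywch1 (0.886) and Gatm (0.866), and Acan by Pcsk6 (0.853), Lrp1 (0.849) and Plekhb1 (0.845). The values of Vcan with Sema6a (0.867), Trak2 (0.858) and Hsbp1 (0.854) and of Tnr with Enpp6 (0.837), Erbb3 (0.836) and Nfasc (0.834) were lower, and Has3 was under the level minimum. Within the members, Ncan and Tnc had r = 0.89, Bcan and Ncan 0.873, Vcan and Hapln1 0.833, Hapln2 and Hapln4 0.811 and Acan and Hapln4 0.791, while Hapln1 and Hapln2 ran against each other with r = -0.84.

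The wider pathway was covered by 71 other genes in 5 lists, for hyaluronan turnover, chondroitin sulfate synthesis, other proteoglycans and glycoproteins, matrix proteases, and net ligands and receptors. At 5m against 3w, 18 of 63 tested fell and 1 rose in input_TH, 13 fell and 8 rose in SC_TH, 5 of 59 fell and 0 rose in input_SYN, and 7 of 61 fell and 1 rose in SC_SYN. Over all genes, 11.8%, 17.9%, 3.22% and 8.05% were called in these fractions. Adamts4, an aggrecanase that cleaves lecticans, fell in all 4 fractions. It went from 207 ± 18.9 CPM at 3w to 66.8 ± 8.17 CPM at 5m in SC_SYN (log2 fold change -1.66, SE 0.12, adjusted p = 2.02e-06 by edgeR) and from 46.7 ± 3.31 to 17.4 ± 1.86 CPM in input_TH (log2 fold change -1.44, SE 0.09, adjusted p = 3.03e-08 by edgeR). In SC_SYN, Chst3, which puts the 6-sulfate on chondroitin, fell further (log2 fold change -2.13, SE 0.21, adjusted p = 3.2e-05 by edgeR), and Chst3 also fell in input_TH (log2 fold change -1.42). Cemip2, a hyaluronidase, fell in SC_SYN (log2 fold change -0.99, SE 0.15, adjusted p = 0.00129 by edgeR), in input_SYN (log2 fold change -1.08, SE 0.14, adjusted p = 0.000164 by edgeR) and in SC_TH (log2 fold change -0.81, SE 0.12, adjusted p = 0.000414 by edgeR). Among the genes that rose in SC_TH were Chpf, a chondroitin polymerising factor (log2 fold change 0.61, SE 0.11, adjusted p = 0.00191 by edgeR), and the Nogo receptor genes Rtn4rl2 and Rtn4r (log2 fold changes 0.55 and 0.52). Tnxb, a tenascin, rose in SC_SYN (log2 fold change 1.12, SE 0.17, adjusted p = 0.00162 by edgeR) and in input_TH (log2 fold change 1.04), where its 5m mean of 24.3 ± 11.6 CPM had a wide spread. The proteases Mmp15 in input_TH (-0.68), Adamts15 in SC_TH (-0.76) and Mmp14 in input_SYN (-0.92) fell.

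At 18m against 5m, 6 of 63 rose and 2 fell in input_TH, where 15.5% of all genes were called, so the count was near that over all genes. None passed by edgeR in the other fractions, where 2.17%, 0.139% and 0.014% of all genes did. Cspg5, a transmembrane proteoglycan, went from 208 ± 9.74 to 274 ± 25.3 CPM (log2 fold change 0.43, SE 0.07, adjusted p = 0.00156 by edgeR), Chsy3, a chondroitin synthase, rose by 0.49 and Adamts4 by 0.49 on the log2 scale, and the genes that fell were Adamts9, a protease of versican and aggrecan (log2 fold change -0.70, SE 0.13, adjusted p = 0.00423 by edgeR), and Sema3a, a guidance factor that nets bind (log2 fold change -0.40, SE 0.09, adjusted p = 0.00748 by edgeR). Cspg5 and Chsy3 also passed as an interaction with compartment in this step, with interactions of -0.61 and -0.68 in input (adjusted p = 0.00396 and 0.0136 by edgeR). For the change of TE in TH over this step, 1 of 64 genes was called higher and 2 lower, where 1.78% of all genes were called. These were Sema3a at 0.62, Chsy3 at -0.54 and Cspg5 at -0.40 (adjusted p = 0.0116, 0.0479 and 0.0443 by edgeR). Between SC_SYN and SC_TH, 63.5%, 67.8% and 62.1% of all genes were called in either direction at 3w, 5m and 18m. Of those called, 49.0%, 47.3% and 48.2% were higher in SC_SYN. Of 63 pathway genes tested, 59 were higher in SC_SYN at 3w and at 5m and 54 at 18m, with medians of 1.31, 1.27 and 0.93. The largest at 5m were Sparc (log2 fold change 2.12, SE 0.16, adjusted p = 2.08e-11 by edgeR), Reln (log2 fold change 2.02, SE 0.14, adjusted p = 3.77e-12 by edgeR), the secreted protein that interneurons of the adult cortex make, and Crtac1, a Nogo receptor antagonist (log2 fold change 1.77). Ugdh, which makes the UDP-glucuronic acid that hyaluronan is built from, was lower in input_SYN than in input_TH at each age, with log2 fold changes of -0.72, -0.54 and -0.41. TE in TH was above the median gene for 30 of 64 genes and below it for 9 at 5m, and in SYN for 9 and 1 of 61. In either direction, 62.1% and 20.0% of all genes were called, and the counts of both directions together were no higher than that. Of all genes called, 48.2% in TH and 48.3% in SYN were higher in the pellet, a smaller share than in the lists.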

How the data were processed

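Cortex of 12 mice gave 48 libraries with rRNA depletion and a directional kit. According to the submitters' notes and the study's methods, reads were demultiplexed with bcl2fastq 2.20.0.422, mapped to GRCm38 with TopHat2 2.1 and counted per gene with featureCounts. Whether the molecular identifiers of the adaptors were used is not given in the sources used here. The values the authors deposited are raw counts per gene, unnormalised and without strand. Fold changes of members with overlapping genes are therefore uncertain.

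From these counts, edgeR 4.0.16 (R 4.3.3, limma 3.58.1) was run with its quasi-likelihood test, TMM scaling, filterByExpr and Benjamini-Hochberg adjustment over all genes, at a threshold of 0.05, for 28 comparisons. Age was fitted within each fraction (12 libraries), and compartment, TE and interactions in pairs of fractions (24 libraries). DESeq2 1.42.0 was an alternative. The scripts were tested on simulated data. Of the gene IDs, 48144 of 48526 matched the annotation (GENCODE M21) and 382 did not.

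The members and lists were chosen with earlier results of these data known. The text names all members, from the pathway lists examples out of the up to 3 genes per direction and comparison with the largest called change, if the higher group averaged 50 counts or more, and for likeness the 3 genes with the highest r, of which 1 for Bcan and 1 for Hapln1 are not reported here. Libraries of a number come from 1 mouse, and the deviations of its libraries from their group means correlated with medians between -0.053 and 0.185 over 6 pairs of fractions. Alternatives were other scaling, filters, samples, a replicate block, thinning, a loess trend on GC content and length, and leaving out each mouse.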

Additional observations from a re-analysis of the deposited data

Results flagged for a closer look

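In each group of 4 mice, a library was singled out where its gap to the nearest other library exceeded 0.829 of the range of the group. Over 120 groups this happened 3 times, where chance would give about 6. Bcan in SC_SYN at 5m was 1298 CPM in mouse 191 and between 777 and 839 CPM in the other 3 (gap over range 0.881). Ncan in input_TH at 18m was 282 CPM in mouse 195 and between 343 and 353 CPM in the others (0.869). Hapln2 in SC_TH at 5m was 15.6 CPM in mouse 194 and between 10.6 and 11.3 CPM in the others (0.873), on 159 counts. The change of Bcan from 5m to 18m differed between input_SYN and input_TH, with an interaction of -0.49 on the log2 scale (adjusted p = 0.0395 by edgeR). This call was lost without mouse 191, 192, 193, 194, 196 or 197, and the value was smaller after correction for GC content and gene length. In none of these was the cause tested.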

How the results depend on the processing

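Of 110 called values of single members, 82 stayed called in every alternative that gave a p-value, 28 lost the call in at least 1, and none of the 110 turned its direction. The correction for GC content and gene length gave only a log2 fold change, so no call could be lost there. Hapln2, not called between SC_SYN and SC_TH at 18m, turned from 0.04 to -0.50 when scaled by library size. The number of members called changed by more than 1.5 times as follows. At 5m against 3w in SC_SYN it was 5, and 8 in DESeq2 and 9 with all 48 libraries in one fit. At 18m against 5m it was 0 in SC_SYN, and 1 in DESeq2 and 4 with all 48 libraries, and 4 in input_TH, and 2 with all 48. The interaction of input_SYN against input_TH at 18m against 5m had 1, and 2 in DESeq2. That of SC_TH against input_TH at 5m against 3w had 0, and 1 in DESeq2, 1 without a filter, 2 with at least 10 counts in every library and 1 with the replicate block, and at 18m against 5m 0, and 1 in DESeq2 and 1 with at least 10 counts. TE in SYN had 2 at 3w, and 1 in DESeq2, without a filter and with only the groups compared, and 1 at 18m, and 2 with at least 10 counts. Apart from these and the values given with the results, the replicate block changed no call. The cause of these changes was not tested.

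Leaving out each mouse in turn gave 8 members at 5m against 3w in input_TH, 7 to 8 in SC_TH, 4 to 6 in input_SYN and 4 to 7 in SC_SYN, and 2 to 5 at 18m against 5m in input_TH. Between SC_SYN and SC_TH it gave 8 to 10, 8 to 9 and 8, and between input_SYN and input_TH 8 to 9, 9 and 9. It gave 4 to 6, 6 to 8 and 6 to 7 for TE in TH, 0 to 2 for both of its changes with age, 0 to 1 for the interaction in input at 18m, and 1, 1 to 2 and 0 for TE in SYN. No paired analysis was possible between ages because the mice differ. Depth limited Has3 most, with 2 to 46 counts per library.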
